A study of Mus musculus with 8 samples.

Results

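The miRNA repertoire described here is that of mouse microvascular smooth muscle cells that lack Rap1a and carry an empty vector. It was read from the 4 arrays labelled as controls, of 8 arrays in the series, and every one of the 611 mouse miRNA names on the array was followed on each of them. The cells came from male C57BL6 mice of genotype Rap1a -/-, so all cultures share the loss of this small GTPase of the Ras family, and no cells with Rap1a were measured. The labels call the 4 cultures biological replicates and give neither the age of the mice nor whether the cultures came from separate animals. Cells were kept in medium with 10% serum, met the empty shuttle virus overnight without serum, and RNA was extracted after a further 48 h in 0.5% serum. These are therefore cultured, virus-exposed cells in low serum, and the repertoire is that of this state.

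MicroRNAs are short RNAs cut from hairpin precursors, first in the nucleus by Drosha and then in the cytoplasm by Dicer. Either arm of the hairpin can be loaded into an Argonaute protein, which it guides to messenger RNAs mainly through the seed, bases 2 to 8 of the mature miRNA. Members of a family share the seed and so share many targets. In smooth muscle of the vessel wall, miR-143 and miR-145 are known for the contractile state, and miR-21, miR-221 and miR-222 for the growth response after injury.

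Each array gave one total gene signal per miRNA, an intensity summed over its probes, and a flag for whether the miRNA was detected. The total over mouse miRNAs was 64186 on replicate 1, 73357 on replicate 2, 81807 on replicate 3 and 59331 on replicate 4, a 1.38-fold range, while the geometric mean of 4 spike-in RNAs was 1405, 1181, 1180 and 1207. Values are therefore given as the share of the mouse miRNA signal of an array, in percent. A share is a share of signal and not of molecules, since probes bind with different strength. Among the 183 miRNAs detected on all 4 arrays, the brightest probe of a miRNA read 3.17 times the dimmest in the median.

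On replicate 1, 198 mouse miRNAs were detected, against 210 on replicate 2, 225 on replicate 3 and 189 on replicate 4. All 4 arrays detected the same 183 miRNAs, 29.95% of those on the array, and 379 (62.0%) were detected on none. The remaining 49 were detected on 1 to 3 arrays and were all dim, with a highest signal of 13.9. The lowest detected signal lay between 2.21 and 2.70 on the 4 arrays. Their number followed the total signal of the array, with 42 of them detected on replicate 3, 27 on replicate 2, 15 on replicate 1 and 6 on replicate 4. Among the brightest of them were miR-542-3p, miR-7a, miR-182, miR-543 and miR-877 on 3 arrays, miR-1897-3p and miR-503 on 2, and miR-380-3p on 1.

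A handful of miRNAs held most of the signal. The 10 brightest names on an array made up 58.3% on replicate 1, 58.9% on replicate 2, 56.9% on replicate 3 and 59.7% on replicate 4, or 58.5% ± 1.17 (SD, n = 4). It took 7 miRNAs on 3 of the arrays and 8 on replicate 3 to reach 50% of the signal, and 48 to 53 to reach 90%. The second number depends on how the background is taken off, and with normexp on the median signals 98.8 miRNAs on average made up 90%. A share above 1% was held by 23 miRNAs, and 96 of the 183 detected on all arrays each held less than 0.1%.

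**Figure D1:**
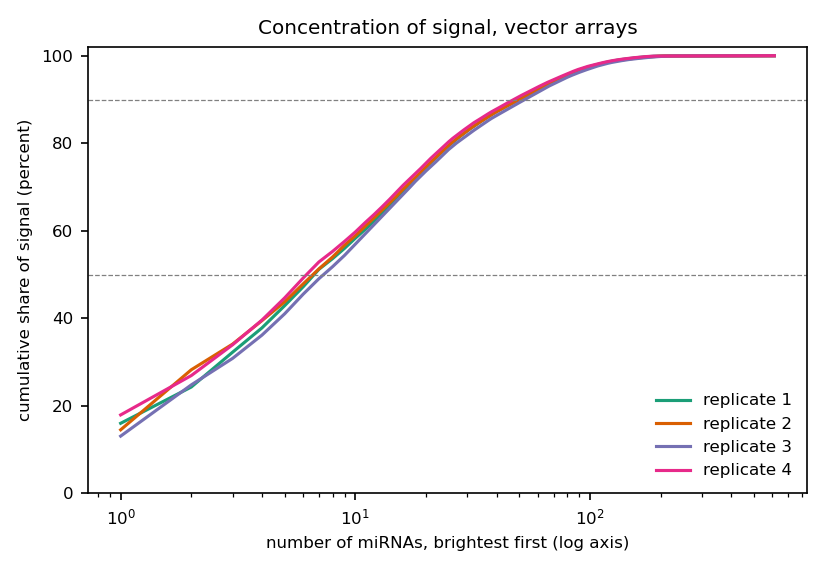
Cumulative share of mouse miRNA signal (percent) against the number of miRNAs, brightest first, on a log axis, with 1 line per vector array and dashed lines at 50% and 90%. The 4 lines nearly coincide and cross 50% at 7 or 8 miRNAs and 90% at 48 to 53.

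The sequences that carry most of this signal are shown first, because the families below are defined by them. They are RefSeq mature sequences (GRCm38.p6), 5′ to 3′, with the seed in capitals. Among names on the array, 456 of 611 matched a RefSeq mature sequence, 160 of them detected on all 4 arrays. Array names that differ from the RefSeq names were matched through a list made by hand. The let-7 family carried more signal than any other seed and all 9 of its members on the array were detected.
let-7a: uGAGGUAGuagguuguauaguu
let-7b: uGAGGUAGuagguugugugguu
let-7c: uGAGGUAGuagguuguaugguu
let-7d: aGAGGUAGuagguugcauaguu
let-7e: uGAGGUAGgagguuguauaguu
let-7f: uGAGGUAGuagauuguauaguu
let-7g: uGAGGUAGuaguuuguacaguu
let-7i: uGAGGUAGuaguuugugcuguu
miR-98: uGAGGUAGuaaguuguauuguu

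Bright miRNAs outside let-7 are shown for their seeds, and the miR-15/16 members are shown because 4 of them with 1 seed were detected and the others were not.
miR-21: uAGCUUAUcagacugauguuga
miR-125b-5p: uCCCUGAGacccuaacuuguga
miR-125a-5p: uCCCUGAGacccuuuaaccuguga
miR-199a-3p: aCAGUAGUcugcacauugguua
miR-22: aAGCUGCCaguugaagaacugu
miR-24: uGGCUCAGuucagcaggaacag
miR-130a: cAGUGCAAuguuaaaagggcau
miR-15b: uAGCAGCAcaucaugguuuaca
miR-15a: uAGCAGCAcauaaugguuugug
miR-16: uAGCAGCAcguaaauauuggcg
miR-322: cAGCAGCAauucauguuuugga

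The brightest name on every array was miR-720, with 16.0% of the signal on replicate 1, 14.5% on replicate 2, 13.1% on replicate 3 and 17.9% on replicate 4 (mean 15.4% ± 2.07, SD, n = 4). This name is known to match a fragment of a transfer RNA, so its signal is not clearly that of a miRNA. Together with miR-709 (0.619% ± 0.0999) and 6 dimmer names of the same doubtful kind (miR-689, miR-690, miR-712, miR-685, miR-714 and miR-715) it held 16.3% ± 2.17. Without the disputed names, miR-21 led with 12.7% ± 2.77.

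miR-21, known for its rise in injured vessels and in fibrosis, was at rank 2 on every array. It held 8.29% on replicate 1, 13.7% on replicate 2, 11.7% on replicate 3 and 8.99% on replicate 4, a mean of 10.7% ± 2.51 (SD, n = 4). Replicates 2 and 3 were high and replicates 1 and 4 low, and the same grouping recurs below. miR-125b-5p, a relative of the worm timing miRNA lin-4, was at rank 3 on every array with 7.96%, 5.87%, 6.06% and 7.03% on replicates 1 to 4, so it ran the other way.

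let-7b (5.09% ± 0.631), miR-199a-3p (4.89% ± 0.523) and let-7c (4.70% ± 0.469) followed. let-7b was above let-7c on every array, and miR-199a-3p changed places with them, at rank 4 to 6. let-7a was at rank 7 on every array with 3.65% ± 0.246. miR-22 (2.50% ± 0.280), let-7f (2.42% ± 0.264), miR-24 (2.28% ± 0.0887) and miR-199b* (2.28% ± 0.271) shared ranks 8 to 11 and again did not hold one order. miR-130a, with 1.84% ± 0.0647, was at rank 13 on every array.

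Also between 2% and 1% stood let-7i (1.89% ± 0.196), let-7d (1.70% ± 0.0955), miR-199a-5p (1.67% ± 0.102), miR-23a (1.66% ± 0.156), miR-29a (1.31% ± 0.170), let-7e (1.24% ± 0.171), miR-34a (1.23% ± 0.175), miR-15b (1.22% ± 0.111), miR-214 (1.13% ± 0.144), miR-27a (1.07% ± 0.192) and miR-23b (1.07% ± 0.118). miR-29a is known to repress collagen mRNAs, and miR-34a is a known target of p53. The last of the 30 brightest were miR-26a, miR-1224, let-7g, miR-16, miR-709, miR-125a-5p and miR-30a, from 0.931% down to 0.545%. Of all names, 27 were among the first 30 on every array.

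**Figure D2:**
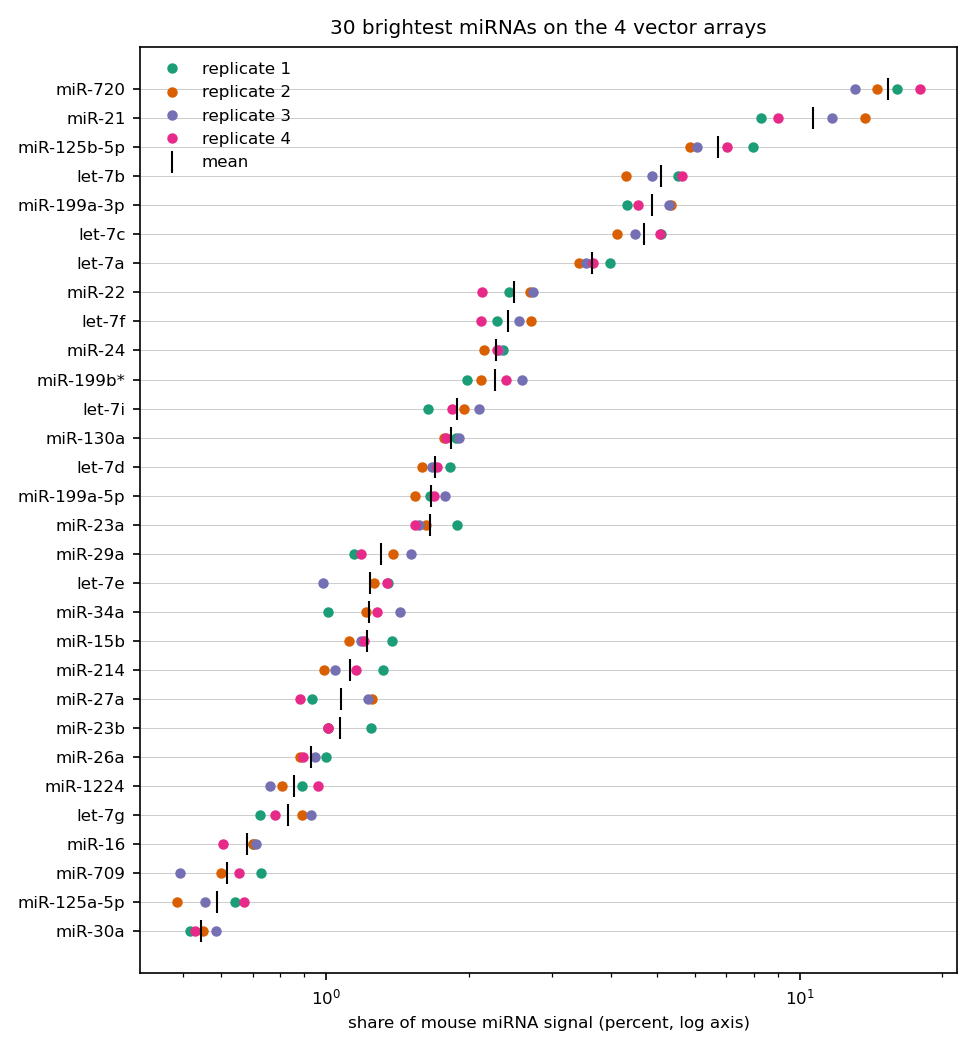
Share of mouse miRNA signal (percent, log axis) of the 30 brightest miRNAs, with 1 coloured point per vector array and a black bar at the mean. The spread between arrays is small against the range from 15.4% for miR-720 to 0.545% for miR-30a, and for miR-21 replicates 2 and 3 lie to the right of replicates 1 and 4.

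Summed over the seed, let-7 held 22.6% on replicate 1, 20.4% on replicate 2, 21.3% on replicate 3 and 22.3% on replicate 4 (21.6% ± 0.993, SD, n = 4), more than miR-720 or any other family on each array. let-7 is known as a brake on growth that keeps the Hmga2 and Lin28 messengers low in differentiated cells. Within the family the 4 brightest were let-7b, let-7c, let-7a and let-7f, and the dimmest was miR-98 with 0.133% ± 0.021. No single member dominated, since let-7b made up 23.5% of the family's signal. Counted from 1 at the 5′ end, with the base of let-7a first, let-7c differs from let-7a by 1 base (A19G), let-7e by 1 (U9G), let-7f by 1 (G12A) and let-7b by 2 (A17G and A19G). How far the probes tell such near-identical miRNAs apart was not tested, so neither the split among the members nor the family sum is sure. Where probes for several members bind the same RNA, the sum counts it more than once.

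After let-7 came miR-21, alone in its seed, and the miR-125 family with 7.32% ± 1.04, of which miR-125b-5p made up 91.9%. In that family miR-125a-5p held 0.589% ± 0.0851, while miR-351 was detected on 1 array only. The family of miR-199a-3p and miR-199b* held 7.16% ± 0.684. The list of names made by hand gave both the same sequence. Which arm of miR-199b the array name miR-199b* stands for was not checked. If it is the 3′ arm, this sum, and any sum that includes it, can count the same RNA under both names. If it is not, miR-199b* does not belong in this sum. The miR-15/16 family, known to restrain cyclins, held 2.65% ± 0.146 through miR-15b, miR-16, miR-15a and miR-322, while its members miR-195 and miR-497 were detected on no array. The miR-130 family held 1.99% ± 0.0665, nearly all of it from miR-130a, with miR-301a beside it at 0.150% ± 0.024 and miR-130b and miR-721 detected on no array. miR-22, miR-24, miR-199a-5p and miR-23a complete the first 10 seeds, which together held 59.5% of the signal. Names without a matched sequence are in no family sum. They held 18.8% ± 2.07, most of it miR-720, and among them is miR-23b with 1.07%, known to share the seed of miR-23a, so the miR-23 family sum of 1.66% is too low and its place in the order is not fixed. Among 51 seeds with 2 or more matched members on the array, all matched members were detected on all 4 arrays for 15 and none on any array for 14. Of all names on the array, 29.95% were detected on all 4 arrays and 62.0% on none.

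**Figure D3:**
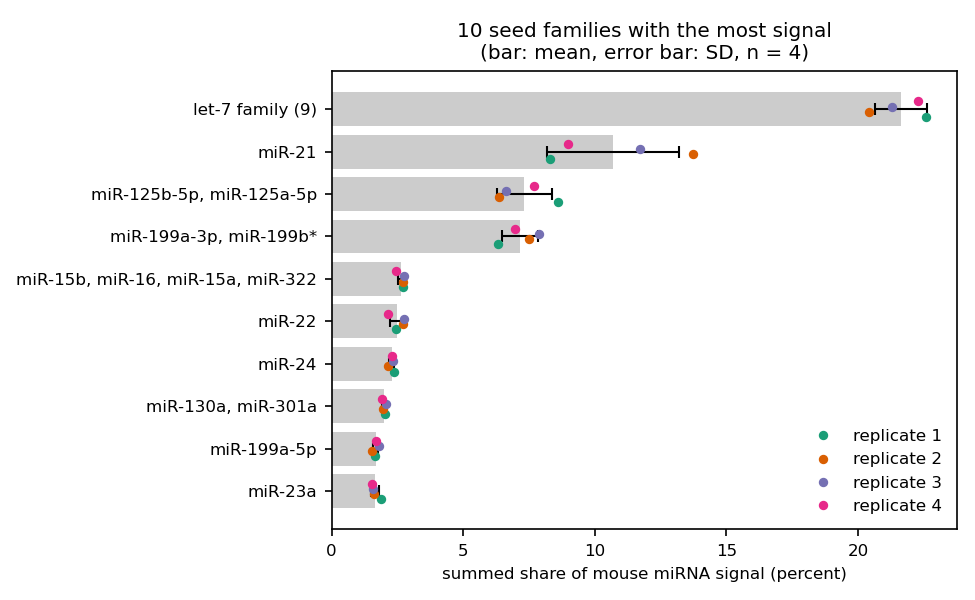
Summed share of mouse miRNA signal (percent) of the 10 seed families with the most signal, as bars for the mean with the SD (n = 4) and 1 point per vector array. let-7 stands at 21.6%, above miR-21 at 10.7%, and the families from the fifth on lie below 3%. The bar of miR-199a-3p and miR-199b* adds names that were given the same sequence by the list of names made by hand.

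The names miR-199a-3p and miR-199b* differed in signal on every array. The list of names made by hand gave both the mature sequence printed above for miR-199a-3p, from genes inside different dynamin genes. The probe sequences were not checked, so the names may stand for different RNAs. miR-199a-3p read 2.18 times miR-199b* on replicate 1 and 2.52 times on replicate 2. On replicates 3 and 4 it read 2.05 and 1.90 times (mean over the 4 arrays 2.16 ± 0.266, SD, n = 4). All 4 arrays thus put a gap of at least 1.90-fold between these names. Whether it is a gap of probes or of abundance was not tested, so it sets no scale for other names. Since probes bind with different strength, gaps between other names need not be gaps in abundance either.

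Many of the bright miRNAs lie side by side in the genome. Hairpins with neighbours within 10 kb, on 1 strand where the strand is known, were taken as a cluster, and a mature miRNA with copies elsewhere was counted in each of its clusters. The pair let-7b and let-7c-2 on chromosome 15 held up to 9.79% ± 1.10, of which 5.10% came from names found nowhere else. let-7a-1, let-7f-1 and let-7d on chromosome 13 held up to 7.78% ± 0.251, of which 1.72% came from names found nowhere else. The let-7 genes also sit beside miR-99a, miR-100 and miR-98 on chromosomes 16, 9 and X, and beside miR-125a and miR-99b on chromosome 17, where let-7e, miR-125a-5p, miR-99b and miR-125a-3p held 2.15% ± 0.251.

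miR-199a-2 and miR-214 share chromosome 1, inside the gene Dnm3 and its antisense transcript Dnm3os. All 4 of their arms were detected, with up to 7.69% ± 0.398, of which 1.14% came from names found nowhere else. Both arms of miR-199a can also come from miR-199a-1, inside Dnm2 on chromosome 9. The unit on chromosome 1 is known from mesenchyme. The miR-23a, miR-27a and miR-24-2 cluster of chromosome 8 held up to 5.18%, 5.04%, 5.13% and 4.72% on replicates 1 to 4 (5.02% ± 0.206). Its sister cluster of miR-23b, miR-27b and miR-24-1 on chromosome 13 held up to 3.78% ± 0.174. Both count miR-24, which either gene can give, and without it they held 2.74% and 1.50%. miR-29a and miR-29b-1 on chromosome 6 held up to 1.45% ± 0.231, of which 1.31% came from names found nowhere else.

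The miR-17 cluster of chromosome 14, known as an oncogenic cluster that drives growth, held up to 1.35% ± 0.181. Of this, 0.425% came from names found nowhere else. Of the 11 mature names of the cluster, 6 (54.5%) were detected on all arrays, beside 29.95% of all names on the array. miR-19b (0.501% ± 0.114), miR-92a (0.429% ± 0.0347), miR-20a (0.262% ± 0.0431), miR-18a, miR-19a and miR-17* were among them, but miR-17, the arm for which the cluster is named, was detected on no array. Its sequence differs from that of the detected miR-20a by 2 bases (U1C and U12C, miR-20a first). The hairpin of miR-17 is printed below with the other hairpins. Why its 5′ arm was not seen was not tested.

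On chromosome 12 a long run of hairpins lies in the imprinted Dlk1-Dio3 region, whose miRNAs come from the maternal chromosome. The run around miR-379 and miR-154 has 38 hairpins and 52 mature names on the array, of which 24 (46.2%) were detected on all arrays and 22 (42.3%) on none, beside 29.95% and 62.0% of all 611 names. It held 2.26%, 2.17%, 2.54% and 2.28% on replicates 1 to 4 (2.31% ± 0.162), so the 4 arrays lay close together. miR-379 (0.419% ± 0.0285), miR-299*, miR-300, miR-329, miR-494 and miR-410 were its brightest, the last at 0.139%. The neighbouring run around miR-127 (0.502% ± 0.0795) held 1.10% ± 0.0937. With neighbours allowed at up to 100 kb both fall into 1 region with 77 names on the array, of which 35 were detected on every array, and 3.46% ± 0.248 of the signal.

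By the RefSeq gene table, the miRNAs detected on all 4 arrays have 183 miRNA genes, of which 89 lie inside the span of a protein-coding gene and 36 only inside a long non-coding RNA gene, with strand not considered. miR-21 lies within Vmp1, a gene of autophagy, and miR-22 in its host transcript Mir22hg. miR-199b lies in Dnm1, miR-26a in Ctdspl and Ctdsp2, miR-15b and miR-16-2 in Smc4, a condensin subunit, and miR-103 in the pantothenate kinase genes Pank2 and Pank3. This array does not measure the host messengers. The 6 detected names without a miRNA gene in that table, miR-720 among them, held 15.6% of the signal.

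Of 167 hairpins with both arms on the array, 22 had both arms detected on all arrays, and 10 when a signal above 10 was asked for as well. In 49 hairpins 1 arm was detected on every array and the other on none, in 14 the other was detected on 1 to 3 arrays, and in 64 neither was detected on any array. Of the 83 hairpins with an arm on all arrays and known arm positions, the 5′ arm was the brighter in 52 and the 3′ arm in 31. Where both arms were detected, the brighter read 7.15 times the dimmer in the median. It was the same arm on all 4 arrays in 20 of the 22. Probes of a single miRNA also differed widely, by more than 10-fold in 25 of the 183 detected on all arrays.

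The next hairpins are printed because their arm names show a strong bias, a moderate one, an even one, and a lone 3′ arm. The moderate one, miR-199a, has more than 1 gene. They are RefSeq sequences with coordinates of GRCm38.p6, which is not the build of the array files, and the 2 mature arms are in capitals.
Mir21a (chr11:86584067-86584158, minus strand): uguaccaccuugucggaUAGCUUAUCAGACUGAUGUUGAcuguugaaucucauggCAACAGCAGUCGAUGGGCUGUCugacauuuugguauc
Mir199a-2 (chr1:162217814-162217923, plus strand): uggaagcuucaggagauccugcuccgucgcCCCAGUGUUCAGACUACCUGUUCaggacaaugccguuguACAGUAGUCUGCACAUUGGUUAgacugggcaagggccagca
Mir409 (chr12:109743158-109743236, plus strand): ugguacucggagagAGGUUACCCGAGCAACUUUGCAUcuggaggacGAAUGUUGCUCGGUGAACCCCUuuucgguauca
Mir17 (chr14:115043671-115043754, plus strand): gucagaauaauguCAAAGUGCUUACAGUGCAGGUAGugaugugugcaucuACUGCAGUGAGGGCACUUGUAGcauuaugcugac

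Among the hairpins with the brightest arms, miR-21* of the 3′ arm held 0.0096%, against 10.7% for miR-21, and its signals of 2.78, 8.47, 8.57 and 7.18 on replicates 1 to 4 were near the lowest detected signal, so the ratio itself is unsure. let-7b*, let-7f*, miR-22* and miR-214* were likewise detected but each at or below 0.015%. let-7a* and let-7d* were detected on 2 arrays, and let-7i*, miR-29a* and miR-15b* on none. miR-199a was the exception among the bright hairpins, since its 5′ arm held 25.6% ± 2.42 of the signal of both arms. Both arms can come from miR-199a-1 or miR-199a-2, and the 3′ arm has the sequence that miR-199b also gives. The signal of neither arm can thus be assigned to 1 gene, and the 25.6% is not the arm share of a single hairpin.

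The 2 arms of miR-409 were even: 40.2 and 36.8 on replicate 1, 35.1 and 35.0 on replicate 2, 48.0 and 48.2 on replicate 3, and 36.3 and 36.4 on replicate 4 for the 3′ and the 5′ arm, a ratio of 1.02 ± 0.046. miR-140 over miR-140* stood at 1.45 ± 0.317, miR-362-3p over miR-362-5p at 1.87 ± 0.815, miR-337-5p over miR-337-3p at 2.03 ± 0.443 and miR-411 over miR-411* at 2.67 ± 0.664. The mean ratios of miR-409, miR-140, miR-362, miR-337 and miR-411 lie below the 3.17-fold median between the brightest and dimmest probe of a miRNA. On replicate 4 alone, miR-411 stood above it at 3.33. An arm signal adds the signals of its probes, so single probes are not a direct scale for it. Whether the order of the arms in these hairpins is one of abundance was not tested. The arm that the array names as the star, and so as the minor one, was the brighter and detected on all arrays in 5 hairpins, miR-299*, miR-674*, miR-17*, miR-877* and miR-135a*. Of these, miR-299* was the brightest with 0.246% ± 0.023.

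**Figure D4:**
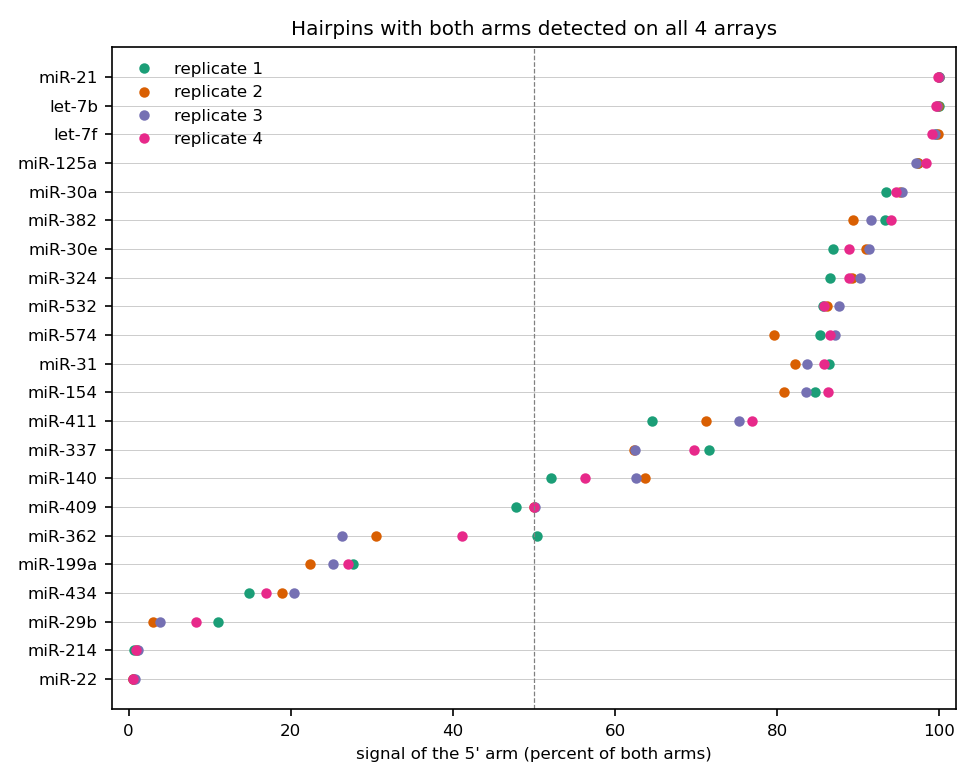
Signal of the 5′ arm as a percent of the signal of both arms in the 22 hairpins with both arms detected on all 4 vector arrays, with 1 point per array and a dashed line at 50%. Hairpins run from near 0% for miR-22 to near 100% for miR-21, miR-409 lies at 49.5% on average and miR-199a at 25.6%.

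The labelled cell type was set against lists of miRNAs known for cell types. These lists were chosen with earlier results of these data known, so they are no independent check of the cell type. Of the contractile smooth muscle list, miR-143 was detected with 0.348%, 0.414%, 0.360% and 0.281% on replicates 1 to 4 and miR-145 with only 0.0344% ± 0.0057. Its other members on the array, miR-145*, miR-133a, miR-133b and miR-1, were detected on none. With 33.3% of its names detected on all arrays, the contractile list lay near the 29.95% of all 611 names. Of the list for injury and growth, 6 of 8 were detected on all arrays with 14.5% ± 2.39 in sum, most of it from miR-21, with miR-24 and miR-26a next and miR-31 (0.330% ± 0.0108), miR-221 (0.240% ± 0.0164) and miR-222 (0.0396% ± 0.0066) behind. miR-146a and miR-146b, known from inflammation, were detected on no array. All 10 mesenchymal and fibroblast names (100%) were detected, with 17.7% ± 0.898 in sum. This sum includes both miR-199a-3p and miR-199b*, which the list of names made by hand gave the same sequence. The mesenchymal list shares miR-24 with the injury list, and its members are also known in many cultured cells.

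The lists of other cell types are read beside all 611 names, of which 29.95% were detected on all arrays and 62.0% on none. The endothelial list had 0 of 2, both arms of miR-126 being detected on no array. The blood list had 1 of 8, miR-155 at 0.0215% ± 0.0040, and miR-142-3p, miR-223, miR-150, miR-451, miR-144 and miR-486 were detected on none. Of the heart and skeletal muscle list, 1 of 8 was detected, miR-206 at 0.0611% ± 0.0081, without miR-1, miR-133a, miR-208a or miR-499. The epithelial list had 2 of 13, miR-96 and miR-183, with miR-182 on 3 arrays and the miR-200 family, miR-203 and miR-205 on none. The neural list had 3 of 13, miR-212, miR-129-3p and miR-128, without miR-124, miR-9 or miR-137, and with 23.1% detected on all arrays and 53.8% on none it lay near the share over all names. The liver, gut and kidney list had 0 of 5, with miR-192 on 2 arrays, the pancreas and pituitary list 0 of 5, and the embryonic stem cell list 0 of 19 with 3 members on 1 array each. By the summed signal, the liver, endothelial, pancreas and stem cell lists were each at or below 0.0111% on every array.

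Between the cultures, the share of a miRNA varied with a median CV of 13.3% over the 183. It was 10.8% over the 20 brightest and 18.1% below the 100 brightest, where the median signal was 15.2. Among the 50 brightest the steadiest were miR-31 (CV 3.27%), miR-130a, miR-196a, miR-24 and miR-151-5p, and the most variable were miR-21 (23.5%), miR-19b (22.8%), miR-15a (20.6%), miR-27a (17.9%) and miR-20a (16.4%). All 5 variable ones were higher on replicates 2 and 3 than on replicates 1 and 4. For miR-19b the shares were 0.420%, 0.621%, 0.573% and 0.388%, and for miR-15a 0.443%, 0.640%, 0.620% and 0.436%. Over the 183 miRNAs, Pearson's r of log2 share between arrays ran from 0.979 to 0.992 and was higher within the pairs 1 and 4 (0.991) and 2 and 3 (0.992) than across them (at most 0.988). These r describe arrays across miRNAs, which are not independent replicates.

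Over the miRNAs as a set, the split ran with base composition, though not for each miRNA. Of the most variable ones named above, miR-21, miR-19b and miR-20a had a GC content below 40%, miR-15a 40.9% and miR-27a 52.4%. Of the 160 detected miRNAs with a sequence, the 29 with GC content of at most 40% held 17.4% on replicate 1, 23.8% on replicate 2, 21.6% on replicate 3 and 17.6% on replicate 4. Spearman's rho between GC content and the deviation of the log2 share from its mean over the arrays was 0.365, -0.559, -0.329 and 0.582 on replicates 1 to 4, across 160 miRNAs. Over the 45 of the 50 brightest with a sequence it was 0.362, -0.518, -0.321 and 0.466. The deviations of an array sum to about 0 over the 4, so these rho are not independent. Replicates 2 and 3 also had the higher total signal, and the part of total signal or GC content in the spread of single miRNAs was not tested.

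**Figure D5:**
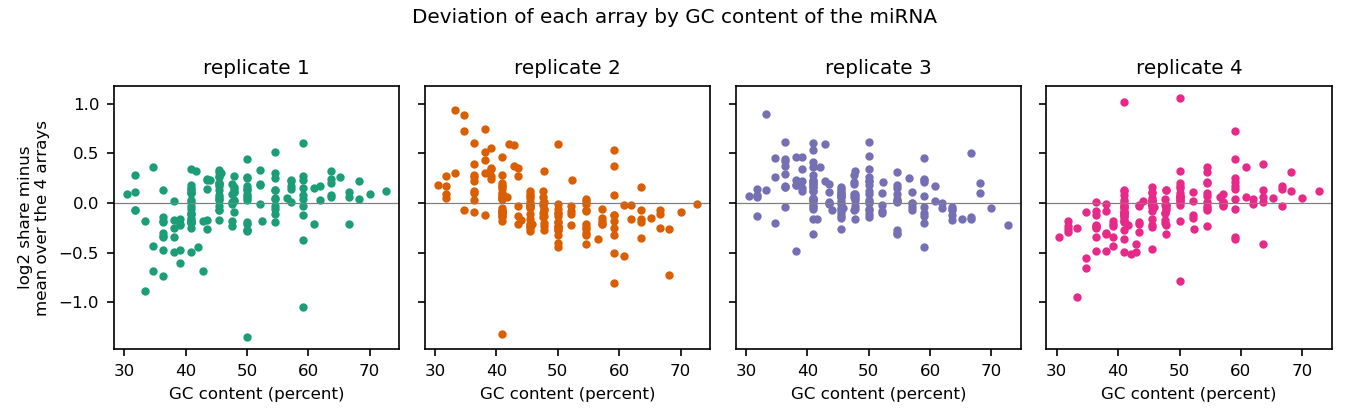
Deviation of the log2 share from the mean over the 4 vector arrays against GC content (percent) for the 160 detected miRNAs with a RefSeq sequence, 1 panel per array. On replicates 2 and 3 most miRNAs low in GC lie above 0, and on replicates 1 and 4 most lie below.

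Detected miRNAs began with U in 48.8% of 160, against 34.4% of the 256 with a sequence that were detected on no array, and in 62.2% of the 45 among the 50 brightest. A first base U is known to favour loading into Argonaute. Their median length was 22 bases in both sets, and their median GC content was 45.6% against 47.5%. Share and GC content over the 160 had a Spearman's rho of -0.153, described without a test.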

How the data were processed

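Single-colour Cy3 arrays from 4 vector cultures were used, and the other 4 arrays of the series were not used here. The authors' spot intensity came from Agilent Feature Extraction, version 10.7.3.1 per the file headers (10.7 in the submitters' processing notes). The deposited intensity per miRNA, the total gene signal, adds the background-subtracted signal of its probes, each probe weighted by its spots, and holds 0.1 where a miRNA was not detected. Every mouse miRNA had 20 spots, and no spot was saturated. Totals of the deposited intensity differed between arrays, and no scaling beyond the share was applied here. Control spots and 39 viral names were left out. The share is the signal over the sum of the 611 mouse miRNAs. Detection is the deposited flag. The number of arrays limits the precision, and an SD measures the spread between these 4 cultures only.

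Only 1 group was described, so no test between groups was run. Dixon's criterion for an outlier among 4 values (critical value 0.829) served only to flag values for a closer look. Seeds and sequences came from RefSeq, with older array names matched to RefSeq names through a list made by hand. Cluster members came from the RefSeq gene table, whose coordinates were used only for neighbours and spans. Arms were assigned from names through the same list, and were not checked against probe sequences. The miRNAs, lists and alternatives were chosen with earlier results of these data known. Named miRNAs were the 30 brightest, detected members of the first 10 seeds, up to 6 per cluster above 1%, the hairpins with the brightest and the 5 most even arms, up to 4 per marker list with its undetected defining members, the brightest partly detected ones and the 5 extremes of CV on each side. Other names, such as the printed hairpins and the host genes, were chosen after their values were seen. The share calculation was tested on simulated arrays. Python 3.11.15 with pandas 2.3.3 and R 4.3.3 with limma 3.58.1 (normexp only) were used.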

Additional observations from a re-analysis of the deposited data

Results flagged for a closer look

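With 4 arrays a single value far from the other 3 is picked out by chance in about 1 of 20 groups. Of 68 values looked at in this way, 3 stood apart, which is near that rate. The geometric mean of the spike-in RNAs was 1405 on replicate 1 against 1180 to 1207 on the other 3 arrays. The share of miR-23b was 1.25% on replicate 1 against 1.01% on the other 3. The share of miR-16 was 0.608% on replicate 4 against 0.701% to 0.713% on the others.

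Of the 39 viral names on the array, which the shares leave out, 3 were detected on all 4 arrays. mcmv-miR-M23-1-5p, named for a mouse cytomegalovirus miRNA, read between 96.1 and 129. mghv-miR-M1-2, named for a mouse gammaherpesvirus miRNA, read between 20.5 and 23.9, and mcmv-miR-m88-1 between 18.1 and 23.7. The labels name no such virus, and whether these probes bind mouse RNA was not tested.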

How the results depend on the processing

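No paired analysis was possible because only 1 group of cultures is described. Leaving out 1 culture at a time, the 10 brightest held 58.0% to 59.0%, 7 to 7.33 miRNAs made 50% and 49.3 to 51 made 90%, miR-720 held 14.5% to 16.2%, miR-21 9.66% to 11.5%, let-7 21.3% to 22.1%, miR-199a-3p with miR-199b* 6.92% to 7.45%, the miR-23a cluster 4.96% to 5.12% and the miR-154 cluster 2.24% to 2.36%. The median CV ran from 12.4% to 14.3%, detected miRNAs from 183 to 190, absent ones from 379 to 391, hairpins with both arms from 22 to 25 and those with a brighter 5′ arm from 52 to 54. Without the disputed names, the 10 brightest held 54.0%, let-7 25.9%, the miR-199 pair 8.55%, the miR-23a cluster 5.99% and the miR-154 cluster 2.76%, since the sum is smaller. A signal above 10 as a second condition left 10 hairpins with both arms. These alternatives were chosen after seeing the data: normexp on the median signals (the 10 brightest 53.4%, and 98.8 miRNAs for 90%), the brightest probe only (the 10 brightest 59.8%, the miR-199 pair 6.19%, the miR-23a cluster 4.44%) and the dimmest probe only (the 10 brightest 56.0%, miR-720 11.6%, let-7 23.0%, the miR-199 pair 10.2%, the miR-23a cluster 6.83%, the miR-154 cluster 2.67%). The cause of these was not tested. With the dimmest probe, 7 of the 10 brightest names stayed among the first 10, and 27 of the first 30 stayed. Of the 30 largest shares, 12 moved by more than their SD under normexp, 11 with the brightest and 19 with the dimmest probe, and 27 of 28 without the disputed names. All other alternatives listed (spot means, detected miRNAs only, viral names in the sum, spots well above background, 75th percentile scaling, 6-base seeds, 50 kb clusters) moved values by less than 1 SD, or counts by less than 1.5 times. Normexp on mean signals was not run, since the scanner output holds no column of mean signals. Dim star arms such as miR-21* lay near the lowest detected signal.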
